A study of Mus musculus with 18 samples.

Results

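Nuclear receptors are transcription factors that are switched on by small fat-soluble molecules, and 9 of those that govern liver metabolism were followed here. They were Rxra, Nr1i2, Nr1i3, Pparg, Ppard, Thrb, Rora, Nr3c1 and Esrra, taken by gene symbol from 23352 symbols in the deposited tables, and a gene's value was the sum over the entries that share its symbol. Each of the 9 genes had a usable value in every library. The samples were livers of male mice aged 20 weeks on a high fat diet, 9 from wild-type (WT) animals and 9 from whole-body Gpr180 knockout (Gpr180KO) animals. The knockout, made in C57BL/6J eggs, carries a CRISPR/Cas9 deletion of an exon of Gpr180 in every cell type of the body, so the liver is not its only site, and controls came from matings of heterozygotes after backcrossing. How many founders stand behind the knockout line is not given in the sources used here. Poly(A) RNA was sequenced, and levels are in FPKM, mapped fragments scaled by transcript length and by the total mapped in the library.

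Most of these receptors act by pairing with RXR alpha, the product of Rxra, on DNA that carries repeated copies of the hexamer AGGTCA, where they recruit corepressors without ligand and coactivators with it. PXR (Nr1i2) and CAR (Nr1i3) sense drugs, bile acids and other foreign or waste compounds and switch on detoxifying enzymes, while PPAR gamma (Pparg) and PPAR delta (Ppard) sense fatty acids, and PPAR gamma is known for driving lipid storage genes in fatty liver. Thyroid hormone receptor beta (Thrb) and the glucocorticoid receptor (Nr3c1) answer hormones, ROR alpha (Rora) binds DNA as a monomer and sits in the circadian clock, and ERR alpha (Esrra) runs mitochondrial genes without a known natural hormone.

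The RefSeq (GRCm38.p6) promoter sequences available here covered 12 start sites of 8 of the 9 genes, and the 250 bases before each were searched on both strands. They held no entry for Nr3c1, which was therefore not searched. AGGTCA stood in 4 of these 12 windows, belonging to Rxra, Pparg and Thrb, against 14.0% of 32851 windows of all genes. The spaced repeats AGGTCANAGGTCA and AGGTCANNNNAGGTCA, the glucocorticoid palindrome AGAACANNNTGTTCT and the ERR motif TCAAGGTCA, which overlaps AGGTCA, were in none of the 12, and in 0.0335%, 0.0152%, 0.00913% and 0.387% of all windows. A window of Rxra is shown because it holds AGGTCA in both orientations and Rxra is the shared partner. One of Pparg is shown because Pparg had the largest genotype difference, and that of Nr1i3 because Nr1i3 separated the series of libraries. Capitals mark AGGTCA or its reverse complement, and the Rxra copies begin 87 and 48 bases before the start site. The Pparg and Nr1i3 windows shown hold no copy. Those of Pparg begin 28 and 9 bases before other start sites of the gene, whose windows are not shown. The windows are Rxra chr2:27709042-27709291, Pparg chr6:115421816-115422065 and Nr1i3 chr1:171213720-171213969, each on the plus strand and free of annotated exons. In the tables (mm10) Rxra spans chromosome 2 from 27677201 to 27763319 and Pparg chromosome 6 from 115361221 to 115490401, so these windows lie in introns of transcripts from earlier start sites, while that of Nr1i3 (chromosome 1, 171213970 to 171218845) ends just before the gene.
Rxra: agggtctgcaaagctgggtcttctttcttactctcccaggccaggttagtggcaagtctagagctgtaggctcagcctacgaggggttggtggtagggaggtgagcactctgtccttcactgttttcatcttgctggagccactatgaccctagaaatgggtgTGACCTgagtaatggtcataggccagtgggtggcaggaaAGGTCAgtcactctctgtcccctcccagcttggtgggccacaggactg
Pparg: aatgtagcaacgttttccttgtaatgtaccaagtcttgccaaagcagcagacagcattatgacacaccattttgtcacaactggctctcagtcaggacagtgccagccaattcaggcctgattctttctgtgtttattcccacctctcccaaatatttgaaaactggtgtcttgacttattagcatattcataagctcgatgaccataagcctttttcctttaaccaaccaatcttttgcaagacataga
Nr1i3: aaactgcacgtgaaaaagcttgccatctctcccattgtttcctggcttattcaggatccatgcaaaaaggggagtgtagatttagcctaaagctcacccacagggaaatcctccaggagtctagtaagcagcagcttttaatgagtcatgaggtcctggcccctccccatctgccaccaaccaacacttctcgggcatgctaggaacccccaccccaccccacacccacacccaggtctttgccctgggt

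The library titles follow 2 naming patterns whose meaning the labels do not give, here called series 1 (W317HFD to W320HFD and KO319HFD to KO322HFD, 4 livers per genotype) and series 2 (WThfd131 to WThfd157 and KOhfd51 to KOhfd56, 5 per genotype). The tables hold no read counts, and the study gives only an approximate range of reads, so the depth of each library is not known here. Gpr180 itself fell from 6.79 ± 1.99 FPKM (SD, n = 9) in WT to 1.60 ± 0.371 FPKM (SD, n = 9) in Gpr180KO, and the genotypes did not overlap. Its difference on the log2(FPKM + 0.1) scale was -2.00 with an SE of 0.18, with an adjusted p of 4.74e-06 in limma. Levels of all genes leaned lower in the knockout, with a median log2 difference of -0.13 over 10835 genes with a mean of at least 1 FPKM. After median-of-ratios scaling, which sets the typical gene equal between libraries, that median was 0.023.

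The library KOhfd51 stood apart, and it carried several of the lowest receptor values. Across 10223 genes its log2 deviation from the other knockout livers fell with the longest annotated transcript of the gene, with a Spearman rho of -0.698 against -0.189 to 0.257 in the other 17 libraries. Its median deviation was 0.77 for transcripts of up to 1000 bases and -1.33 for those over 8000 bases. Rora, whose longest transcript has 10878 bases, was at 0.374 FPKM there against a median of 9.36 FPKM in the other 8 knockout livers, and 0.148% of all genes deviated as far downward. Thrb (6200 bases) was at 2.92 FPKM, Nr3c1 (6436 bases) at 6.87 FPKM and Rxra (4905 bases) at 47.6 FPKM, each the lowest of 18 livers, whereas Esrra (2489 bases) was the highest at 13.0 FPKM. KOhfd51 was thus the lowest library for 4 of the 9 receptors and the highest for 1, while it was the lowest for 37.0% and the highest for 18.8% of all genes. The genotype difference of each receptor is therefore given with and without it.

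**Figure D1:**
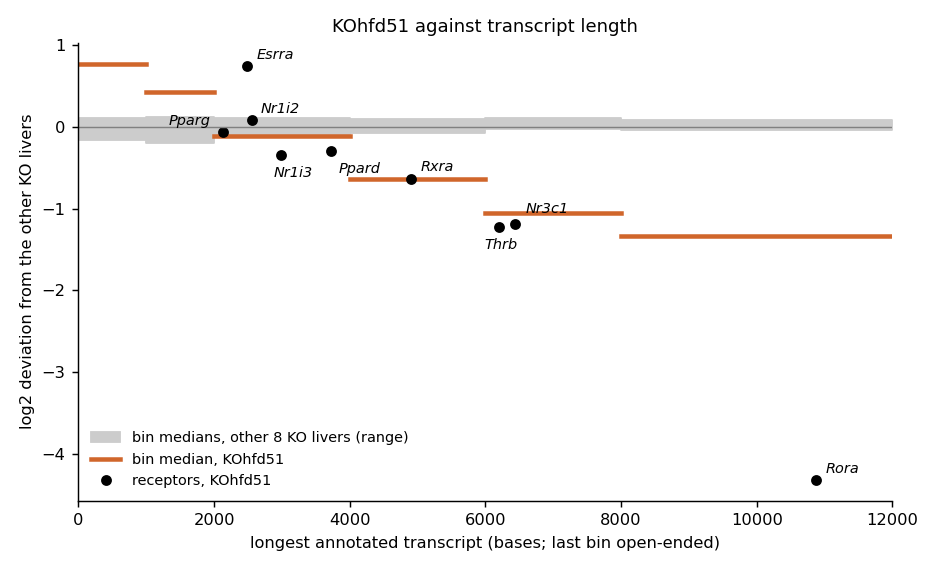
Log2 deviation of KOhfd51 from the other knockout livers (vertical axis) against the longest annotated transcript in bases (horizontal axis). Orange lines are medians of all genes in a length bin, grey bands the range of the same medians in the other 8 knockout livers, and black points the 9 receptors, with Rora at -4.32 and Esrra at 0.74.

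No receptor passed the genotype test across all genes. Of the 9 receptors 0 passed an adjusted p of 0.05 in limma, where 4.73% of all genes did, 4.28% lower and 0.452% higher in Gpr180KO. At an unadjusted p under 0.05 the count was also 0, against 22.2% of all genes, and 0 passed after median-of-ratios scaling (2.7% of all genes, 1.36% lower and 1.35% higher) or without KOhfd51 (7.18%). The ranges of the genotypes overlapped for all 9, as they did for all but 0.231% of genes. Mean log2 values were lower in Gpr180KO for 8 of the 9, against 76.9% of all genes, and for 4 of the 9 after median-of-ratios scaling, against 44.9%. Their median difference was -0.13, beside -0.13 for all genes. The 95% intervals ran from -1.33 (Rora) to 0.55 (Rora), so changes of the size of the Gpr180 difference lay outside every interval, while smaller ones were not detectable for the most variable receptors.

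**Figure D2:**
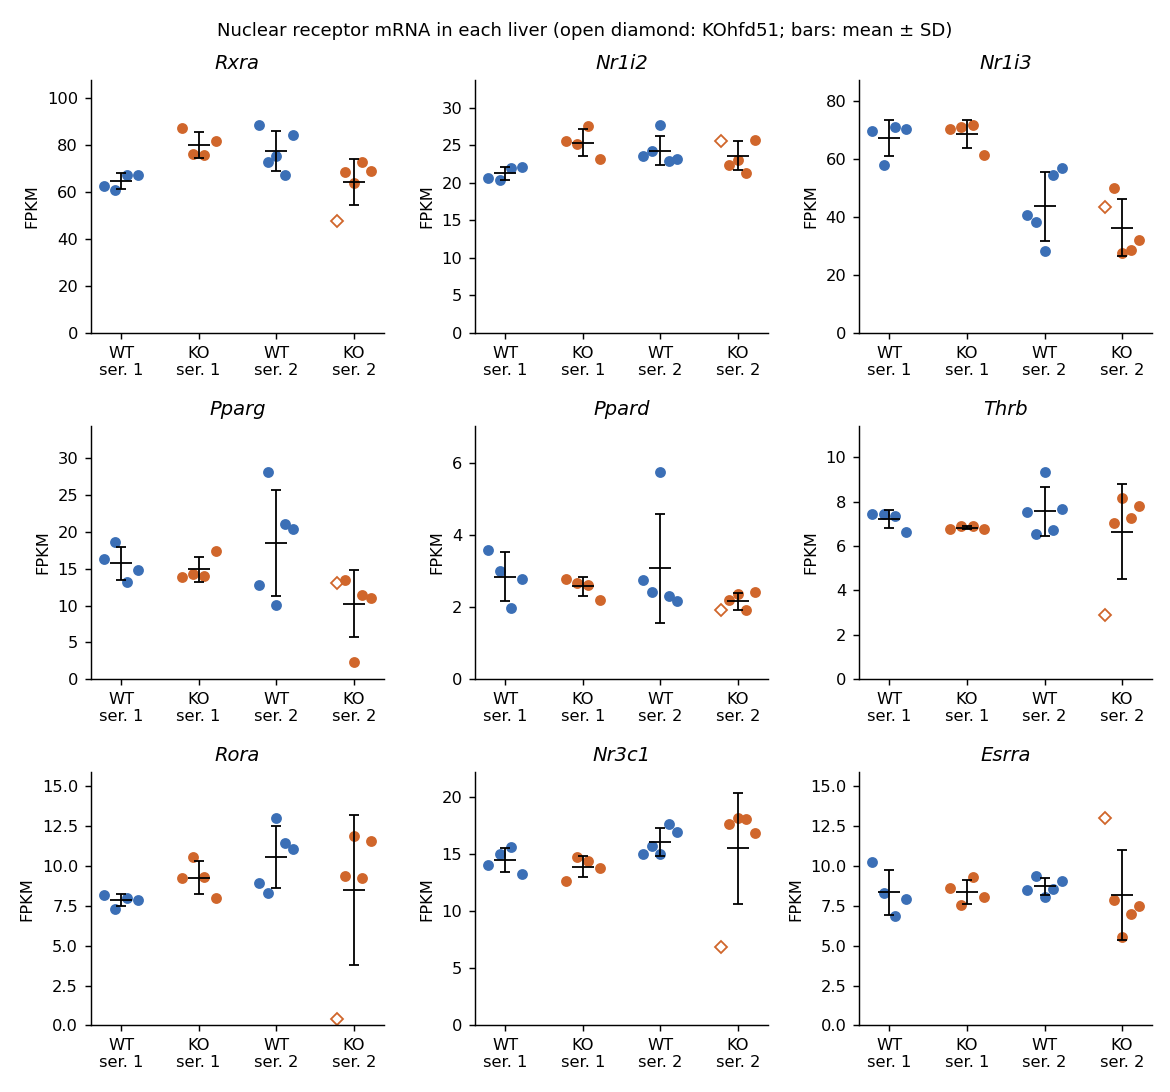
FPKM of each receptor in each liver (vertical axes, from 0), by genotype and title series. Filled circles are livers, the open diamond is KOhfd51, and bars give the mean ± SD of 4 (series 1) or 5 (series 2) livers. Rxra and Nr1i2 do not overlap between genotypes in series 1, and all series 1 livers lie above all series 2 livers for Nr1i3.

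**Figure D3:**
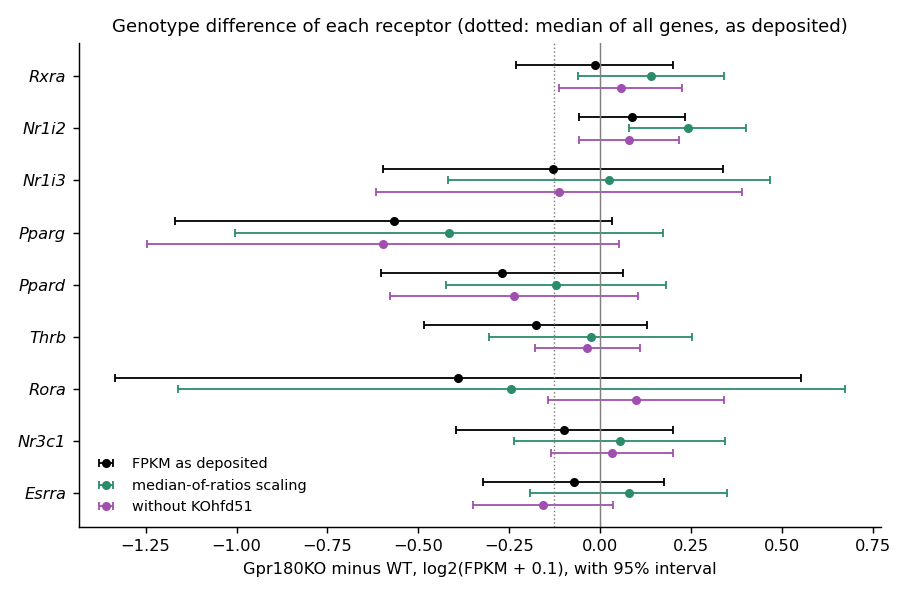
Gpr180KO minus WT difference in log2(FPKM + 0.1) (horizontal axis) for each receptor, with 95% intervals, as deposited (black), after median-of-ratios scaling (green) and without KOhfd51 (purple). The dotted line is the median of all genes, -0.13. As deposited and without KOhfd51 every interval includes 0, and after scaling that of Nr1i2 does not.

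Rxra, the shared partner, was the most abundant of the 9. Its levels in WT had a lowest value of 60.8, a median of 67.3 and a highest of 88.2 FPKM, and in Gpr180KO 47.6, 72.5 and 87.2 FPKM. The genotypes overlapped throughout, and the log2 difference was -0.015 (95% interval -0.23 to 0.20, adjusted p = 0.942, exact permutation p = 0.892), and 0.055 without KOhfd51. Within series 1 the picture was different. There the 4 WT livers lay between 60.8 and 67.3 FPKM and the 4 Gpr180KO livers between 75.4 and 87.2 FPKM, with no overlap. In series 2 the WT livers spanned 67.0 to 88.2 FPKM and the knockout livers 47.6 to 72.5 FPKM, or 63.9 to 72.5 FPKM without KOhfd51. The difference was thus 0.31 in series 1, where it passed adjustment when series 1 was fitted alone (adjusted p = 0.0342, 5.33% of genes called), and -0.28 in series 2. The change between the series was -0.59 (SE 0.16). For Rxra alone the exact permutation p was 0.000567 and the unadjusted p in limma 0.00190. Adjusted over all genes the limma p was 0.581. There 0 of 10835 genes passed, and 7.69% had an unadjusted p under 0.05. The change was -0.48 without KOhfd51 (adjusted p = 0.166).

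Nr1i2, the gene of PXR, had coefficients of variation of 9.43% in WT and 8.13% in the knockout and was the only one with a higher mean in the knockout as deposited. WT livers ran from 20.4 through a median of 22.9 to 27.6 FPKM, and Gpr180KO livers from 21.3 through 25.2 to 27.5 FPKM. The groups overlapped, although 7 of 9 knockout livers were above the WT mean. The log2 difference was 0.088 (95% interval -0.058 to 0.23, adjusted p = 0.459, exact permutation p = 0.153), and 0.079 without KOhfd51. It was 0.24 after median-of-ratios scaling (adjusted p = 0.0972), and with the title series added as a block to that scaling it passed (adjusted p = 0.0405, 5.86% of genes called). As with Rxra, series 1 separated the genotypes, with WT at 20.4 to 22.1 and Gpr180KO at 23.1 to 27.5 FPKM, while series 2 overlapped, at 22.9 to 27.6 and 21.3 to 25.6 FPKM. Non-overlap within series 1 held for 2 of the 9 receptors and for 14.7% of all genes, and within series 2 for 0 of the 9 and for 6.05%. The change between the series was -0.29 (SE 0.12, exact permutation p = 0.00781, in limma unadjusted p = 0.0256 and adjusted p = 0.613).

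Nr1i3, the gene of CAR, separated the title series, while its genotypes overlapped. WT values had a lowest of 28.2, a median of 56.8 and a highest of 70.9 FPKM, and Gpr180KO values 27.7, 49.8 and 71.5 FPKM. All 8 livers of series 1 (57.7 to 71.5 FPKM) were above all 10 of series 2 (27.7 to 56.8 FPKM), whatever their genotype. Nr1i3 was the only receptor whose series did not overlap, which 2.23% of all genes did. The genotype difference was -0.13 (95% interval -0.60 to 0.34, adjusted p = 0.743), and -0.11 without KOhfd51. Series 1 gave 0.033 against -0.26 in series 2. For Nr1i3 the deposited value lay outside its own deposited confidence interval in 14 of 18 libraries, and for Rxra in 5 of 18, so those intervals were not used.

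Among 15 known targets of PXR and CAR, all tested, 2 fell, 1 rose and 12 did not pass, with a median log2 difference of -0.47, beside a called share of 4.73% and a median of -0.13 for all genes. Of the 15, 9 had an unadjusted p under 0.05 in limma, in either direction, against 22.2% of all genes. Cyp3a11, the main drug-oxidising P450 of mouse liver, fell from 848 ± 258 to 397 ± 126 FPKM (SD, n = 9 each), a log2 difference of -1.11 (SE 0.19, adjusted p = 0.00677). Its WT livers spanned 619 to 1439.7 FPKM and its knockout livers 227 to 577 FPKM, without overlap. Series 1 gave -0.64 and series 2 gave -1.49. Gadd45b, a stress-induced gene that CAR activators raise, fell from 1.55 ± 0.714 to 0.492 ± 0.342 FPKM (log2 -1.51, adjusted p = 0.0393), with an adjusted p of 0.0605 after median-of-ratios scaling. The knockout mean of Gadd45b was below the minimum of 1 FPKM, so the gene was tested only through its WT level. Ces2a, a carboxylesterase, rose from 50.1 ± 11.3 to 77.1 ± 16.2 FPKM (log2 0.63, adjusted p = 0.0169) and was above the WT mean in 9 of 9 knockout livers. The P450 Cyp2c29 had means of 338 and 432 FPKM and did not pass (log2 0.37, adjusted p = 0.0922). Cyp2b10, another P450 on the list, had means of 0.999 and 1.08 FPKM, near the minimum, and did not pass (log2 0.16, adjusted p = 0.775). Leaving out any 1 library ended neither the Cyp3a11 nor the Ces2a call, while that of Gadd45b was lost without any 1 of 11 libraries, namely every series 1 WT liver, WThfd131, WThfd133, WThfd156, KOhfd52, KOhfd53, KOhfd54 and KOhfd56. With the title series as a block, the counts became 5 lower and 1 higher, where 10.6% of all genes were called.

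Pparg showed the largest mean difference of the 9, and it did not pass the test. WT livers had a lowest value of 10.1, a median of 16.3 and a highest of 28.2 FPKM, and Gpr180KO livers 2.37, 13.4 and 17.5 FPKM. The ranges overlapped, with 8 of 9 knockout livers below the WT mean. The log2 difference was -0.57 (SE 0.29, 95% interval -1.17 to 0.033, adjusted p = 0.253, exact permutation p = 0.0516). Scaling by median of ratios brought it to -0.42, and without KOhfd51 it was -0.60. Most of it came from series 2, at -0.97 against -0.072 in series 1, although the change between the series did not pass (-0.89, SE 0.56, exact permutation p = 0.155). The value in KOhfd53, 2.37 FPKM, lay below the next knockout liver at 11.0 FPKM, and without that library the difference was -0.30. FPKM sums transcripts from both Pparg start sites in the tables, so the isoforms were not separated.

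Known PPAR gamma targets gave 1 lower and 0 higher gene of 9 tested of 10 listed, with a median of -0.56. Of all genes 4.28% were called lower and the median was -0.13. Cd36, a fatty acid transporter, fell from 102 ± 23.2 to 63.4 ± 21.2 FPKM (SD, n = 9 each; log2 -0.73, SE 0.19, adjusted p = 0.0337). Its WT range of 67.5 to 131 FPKM overlapped that of the knockout, 38.4 to 95.5 FPKM, with -0.54 in series 1 against -0.87 in series 2. The call was lost without any 1 of W317HFD, W318HFD, W320HFD, WThfd133, KOhfd52, KOhfd53 and KOhfd54, and when median-of-ratios scaling was combined with leaving out KOhfd51. The lipid droplet genes did not pass. Cidec, which fuses droplets, had means of 54.4 ± 17.4 and 33.1 ± 19.9 FPKM (adjusted p = 0.217), and Mogat1, an enzyme of triglyceride synthesis, 8.43 ± 5.09 and 4.66 ± 2.55 FPKM (adjusted p = 0.224).

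The liver with the lowest Pparg was also the lowest for several of these targets. KOhfd53 had the lowest of 18 values for 4 of the 9 targets, and for 3 of the 9 receptors (Pparg, Nr1i3 and Esrra), which is the case for 15.1% of all genes. Cidec was at 1.65 FPKM, against 75.7 FPKM in WThfd133, the liver with the highest Pparg. Mogat1 was at 1.26 FPKM and Plin4, a droplet coat protein, at 1.18 FPKM. Cidea, a close relative of Cidec, was listed at 0 FPKM in KOhfd53 and ranged up to 48.2 FPKM in KOhfd51. Low target values were not limited to that liver, since WThfd157 held 17.1 FPKM of Cidec beside 20.4 FPKM of Pparg.

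**Figure D4:**
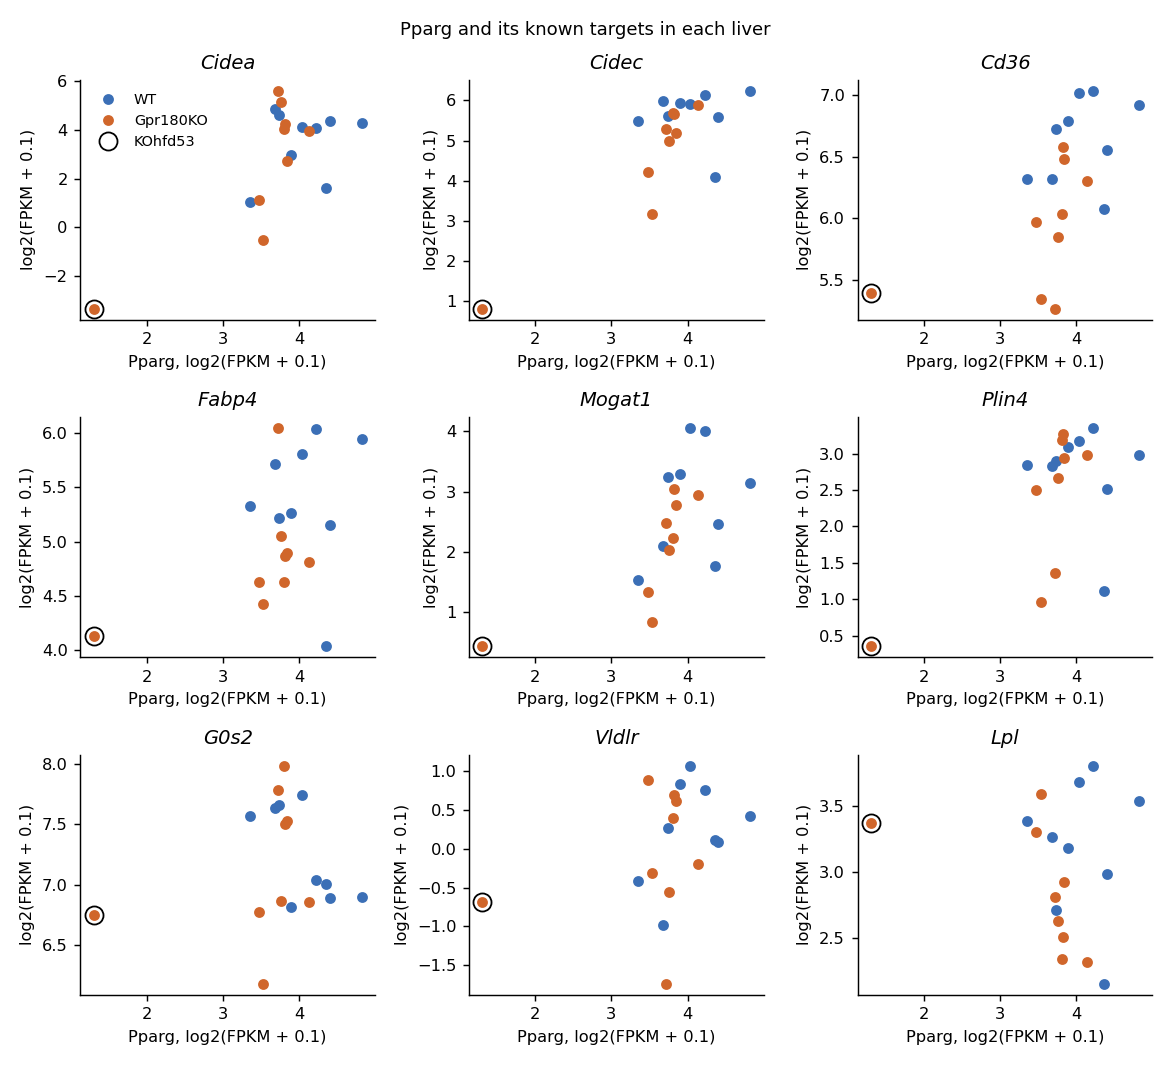
Each of the 9 tested PPAR gamma targets (vertical axes) against Pparg (horizontal axes), both as log2(FPKM + 0.1), with 1 point per liver, WT in blue and Gpr180KO in orange. The ringed point is KOhfd53, with Pparg at 2.37 FPKM, which lies lowest for 4 of the 9 targets.

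Ppard was the least abundant of the 9. WT livers ran from 1.96 through a median of 2.75 to 5.76 FPKM, and Gpr180KO livers from 1.92 through 2.36 to 2.79 FPKM. All 9 knockout livers were below the WT mean, but that mean was raised by WThfd134, which held the highest value. The log2 difference was -0.27 (95% interval -0.60 to 0.062, adjusted p = 0.326, exact permutation p = 0.108), -0.24 without KOhfd51 and -0.14 without WThfd134. Of 8 PPAR delta targets, 1 fell and 0 rose, with 4.28% of all genes called lower. This was Ucp2, a mitochondrial carrier, which fell from 12.4 ± 3.90 to 7.22 ± 2.25 FPKM (SD, n = 9 each; log2 -0.78, adjusted p = 0.0359) and had an adjusted p of 0.0717 after median-of-ratios scaling. Its call was lost without any 1 of 8 libraries, W317HFD, W318HFD, W320HFD, WThfd133, KOhfd52, KOhfd53, KOhfd54 and KOhfd56. Pdk4, which turns off glucose oxidation when fat is burned, had means of 9.65 and 5.78 FPKM without passing (adjusted p = 0.166).

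Thrb, the main thyroid hormone receptor of hepatocytes, had a lowest value of 6.56, a median of 7.45 and a highest of 9.36 FPKM in WT, and 2.92, 6.90 and 8.18 FPKM in Gpr180KO. The genotypes overlapped, with 7 of 9 knockout livers below the WT mean. The log2 difference was -0.18 (95% interval -0.48 to 0.13, adjusted p = 0.474), and -0.036 without KOhfd51. Of its targets 0 of 7 tested passed adjustment, 2 at an unadjusted p under 0.05 (22.2% of all genes), with a median of -0.33, beside -0.13 for all genes. The lipogenic malic enzyme Me1 had the lowest p, with means of 182 ± 29.6 and 120 ± 46.5 FPKM (log2 -0.72, adjusted p = 0.0737). Gpd2, the mitochondrial glycerol phosphate dehydrogenase, followed with 13.8 and 11.4 FPKM (adjusted p = 0.197).

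Nr3c1, the glucocorticoid receptor gene, had a lowest value of 13.3, a median of 15.0 and a highest of 17.6 FPKM in WT, and 6.87, 14.7 and 18.1 FPKM in Gpr180KO. Apart from KOhfd51 the knockout livers ran from 12.6 to 18.1 FPKM and covered the whole WT range. The log2 difference was -0.099 (95% interval -0.40 to 0.20, adjusted p = 0.692) and 0.031 without KOhfd51. Of 12 glucocorticoid targets 0 passed as deposited, 4 at an unadjusted p under 0.05 (22.2% of all genes). Their median was -0.047, or 0.11 after median-of-ratios scaling, beside -0.13 and 0.023 for all genes. The metal-binding protein gene Mt1 had means of 31.4 ± 13.0 and 15.6 ± 6.13 FPKM (log2 -0.94, adjusted p = 0.0540). The gluconeogenic enzyme gene Pck1 had 470 ± 201 and 735 ± 202 FPKM (log2 0.71, adjusted p = 0.0613), and passed after median-of-ratios scaling (adjusted p = 0.0470). Both passed without KOhfd51, with adjusted p of 0.0323 and 0.0419, in opposite directions.

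Rora was the receptor most affected by a single library. WT livers had a lowest value of 7.34, a median of 8.31 and a highest of 13.0 FPKM, and Gpr180KO livers 0.374, 9.33 and 11.9 FPKM. The log2 difference of -0.39 (95% interval -1.33 to 0.55, adjusted p = 0.618) turned to 0.097 (95% interval -0.14 to 0.34, adjusted p = 0.644) without KOhfd51, when the knockout mean went from 8.85 ± 3.41 (SD, n = 9) to 9.90 ± 1.33 FPKM (SD, n = 8). In series 1, which lacks that library, the difference was 0.23. Of 9 tested ROR alpha targets 2 rose, beside 0.452% of all genes, 0 fell and the median was 0.15, or 0.30 under median-of-ratios scaling. They were Elovl3, a fatty acid elongase of the circadian programme, which went from 101 ± 38.0 to 189 ± 50.2 FPKM (log2 0.96, adjusted p = 0.0219), and Cyp7b1, an oxysterol hydroxylase, from 35.4 ± 10.2 to 65.7 ± 32.8 FPKM (log2 0.81, adjusted p = 0.0464). Elovl3 was above the WT mean in 9 of 9 knockout livers and lost its call without W317HFD. Cyp7b1 had an adjusted p of 0.0588 without KOhfd51, and was also lost without any 1 of W317HFD, W318HFD, W319HFD, W320HFD, WThfd133, WThfd156, KO320HFD, KO322HFD, KOhfd52, KOhfd53 and KOhfd54.

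Esrra had a lowest value of 6.88, a median of 8.51 and a highest of 10.2 FPKM in WT, and 5.56, 7.89 and 13.0 FPKM in Gpr180KO. The knockout range enclosed the WT range, and its highest value belonged to KOhfd51. The log2 difference was -0.074 (95% interval -0.32 to 0.18, adjusted p = 0.726), and -0.16 without that library. Of 10 targets in mitochondrial metabolism 0 passed, 2 at an unadjusted p under 0.05 (22.2% of all genes), and their median was -0.10, or 0.051 after median-of-ratios scaling. Sdhb, an iron-sulfur subunit of respiratory complex II, had means of 178 and 210 FPKM (adjusted p = 0.173), and citrate synthase (Cs) 74.9 and 61.3 FPKM (adjusted p = 0.187).

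**Figure D5:**
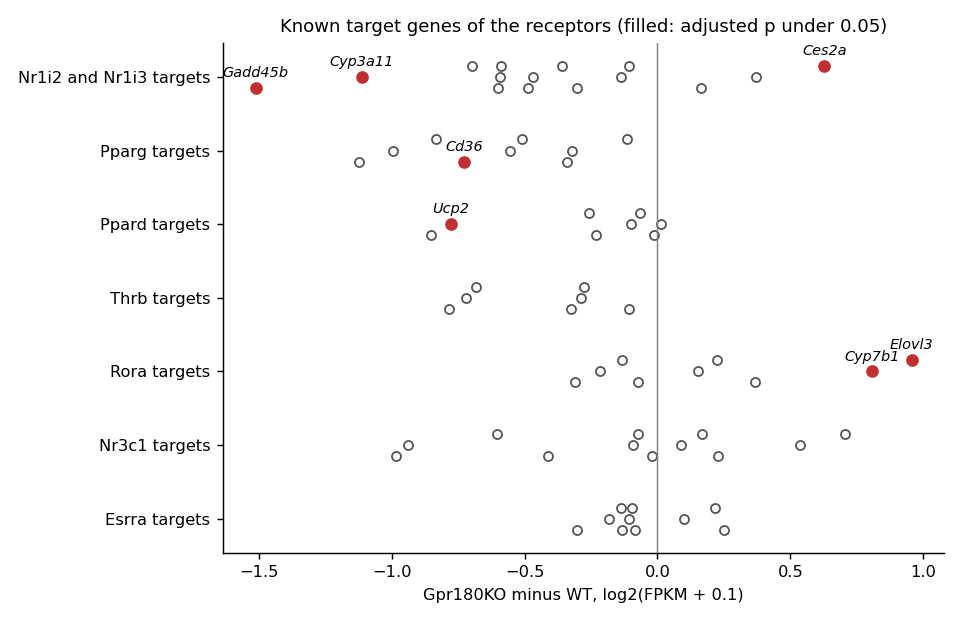
Gpr180KO minus WT difference in log2(FPKM + 0.1) (horizontal axis) for the tested targets of each receptor, with 1 circle per gene. Filled circles passed an adjusted p of 0.05, which 7 of the genes did, 4 lower (Gadd45b, Cyp3a11, Cd36, Ucp2) and 3 higher (Ces2a, Elovl3, Cyp7b1). Gadd45b was tested only through its WT level.

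Of 40 other nuclear receptors 25 were tested, and 1 fell while 0 rose, a share near the 4.73% of all genes called. This was Nr1h4, the gene of the bile acid receptor FXR, another RXR partner, which went from 56.2 ± 5.23 to 43.8 ± 6.29 FPKM (SD, n = 9 each; log2 -0.37, adjusted p = 0.0281), lower than the WT mean in 9 of 9 knockout livers. Series 1 gave -0.13 against -0.56 in series 2. Scaling by median of ratios ended the call, at -0.21 (adjusted p = 0.232). Its call was also lost without any 1 of W317HFD, WThfd133, KOhfd53 and KOhfd54. Of 18 coactivators and corepressors 0 passed, 1 at an unadjusted p under 0.05 (22.2% of all genes). Tbl1xr1, a subunit of the corepressor complex, had means of 4.10 and 3.15 FPKM (adjusted p = 0.132). Nrip1, a corepressor, had 2.84 and 2.05 FPKM (adjusted p = 0.285), with its lowest value, 0.0831 FPKM, in KOhfd51. Without that library its log2 difference went from -0.71 to -0.30 (adjusted p = 0.0543).

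Of the markers of other liver cells, several of stellate cells and fibroblasts were called, and so were the 2 tested ones of cholangiocytes. Which cells the RNA of a marker came from was not tested. In bulk liver fewer cells of a type and less RNA per cell cannot be told apart either. For the lists that follow, 4.28% of all genes were called lower. Of 10 stellate and fibroblast markers 5 fell (Col1a1, Col1a2, Col3a1, Pdgfrb and Dcn), while Lrat, Des, Reln, Rgs5 and Acta2 did not pass. The Col1a2 call was lost without W317HFD or WThfd133. Summed levels were 150 to 303 FPKM in WT and 93.3 to 153 FPKM in Gpr180KO, mostly Dcn (116 to 196 and 63.8 to 103 FPKM). Of 11 macrophage markers 1 fell, Cd68, whose call was lost without any 1 of W317HFD, W318HFD, WThfd133 and KOhfd53, and the sums were 275 to 582 and 290 to 464 FPKM. Both tested cholangiocyte markers of 5 listed, Spp1 and Sox9, fell, while Krt7, Krt19 and Epcam were below the minimum and not tested. The sums over all 5, 40.8 to 226 and 17.4 to 51.0 FPKM, were mostly Spp1 (36.8 to 223 and 14.9 to 47.7 FPKM). Sox9, with means of 1.44 and 0.859 FPKM, passed the minimum of 1 FPKM only through WT. The Sox9 call was lost under median-of-ratios scaling (adjusted p = 0.137) and without any 1 of 13 libraries, the exceptions being W319HFD, WThfd157, KOhfd51, KOhfd53 and KOhfd56. Neither the 10 hepatocyte markers (17748 to 21003 and 19655 to 32301 FPKM) nor the 8 endothelial markers (59.8 to 101 and 54.1 to 85.0 FPKM) had a member past adjustment. In either list 0 had an unadjusted p under 0.05, against 22.2% of all genes. The highest hepatocyte sum, 32301 FPKM, was that of KOhfd51. Apoa1 was at 17634 FPKM there, against 6986 to 9031 FPKM in the other knockout livers. Of 5 adipocyte markers only Cfd was tested, at 1.54 to 46.7 FPKM in WT and 4.36 to 278 FPKM in Gpr180KO, where KOhfd51 was highest, while Plin1 was listed at 0 in every library. The 8 lymphocyte markers were all below the minimum, with sums of 1.69 to 6.63 and 1.77 to 4.58 FPKM. The part of these cells in the receptor and target values was not tested.

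FPKM is per length, so levels can be set side by side, and by WT mean the order was Rxra, Nr1i3, Nr1i2, Pparg, Nr3c1, Rora, Esrra, Thrb and Ppard, from 71.6 down to 2.97 FPKM. Nr1i3 was above Nr1i2, Nr3c1 above Rora and Thrb above Ppard in 18 of 18 livers. The other 5 pairs of neighbours overlapped in WT. Nr1i2 was above Pparg in 17 of 18 livers, Rxra above Nr1i3 in 15, Esrra above Thrb in 13, Rora above Esrra in 12 and Pparg above Nr3c1 in 9. Spread differed as well, with coefficients of variation in WT from 8.77% (Nr3c1) to 38.8% (Ppard), the latter being 19.9% without WThfd134.

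Some receptors varied together from liver to liver. After scaling by median of ratios and removing the mean of each genotype within each series, Thrb and Rora had a Pearson r of 0.94 over 18 libraries, Rora and Nr3c1 0.93 and Rora and Esrra -0.88, and without KOhfd51 these were 0.80, 0.72 and -0.61. The points share libraries and the length-related deviation of KOhfd51. The genes most like Rora among 10835 were Nr2c2, another nuclear receptor, and Zbed6 (both r = 0.99, and 0.93 without KOhfd51). For Nr1i3 they were Pbld1 (0.94) and Hdac6 (0.92), which held without KOhfd51 at 0.94 and 0.91. Those of Pparg were Zdhhc8 (0.90) and Wbscr27 (0.89), and those of Ppard were Ube2c (0.87) and Ctsc (0.86). For Rxra they were Dclre1b and Ftsjd2 (both 0.87), and for Nr1i2 Dhrs3 (0.89) and Prss53 (0.87). Thrb was most like Grlf1 (0.98) and Prkar2a (0.97), Nr3c1 most like Psd3 and Sox6 (both 0.98), and Esrra most like Shkbp1 and Ap2s1 (both 0.95). Without KOhfd51 these were 0.93 and 0.92 for Thrb, 0.95 and 0.92 for Nr3c1, and 0.88 and 0.87 for Esrra. Spearman rho over 18 libraries was 0.77 and 0.78 for the Pparg pairs, 0.73 and 0.76 for those of Ppard, and 0.75 and 0.81 for those of Esrra.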

How the data were processed

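Livers of 18 male mice on a high fat diet were used, 9 WT and 9 Gpr180KO, grouped by the genotype in the labels. The authors sequenced poly(A) RNA as single reads of 75 bases and aligned them with TopHat to GRCm38 (mm10), and they deposited FPKM values per gene with intervals. The FPKM values are described as output that followed the TopHat alignment, while the program that computed them, its annotation and the depth of each library are not given in the sources used here (the study gives an approximate range of reads only), and nothing says whether the libraries were prepared together. Entries sharing a symbol were summed. Genes with a mean of at least 1 FPKM (10835 genes) were tested on log2(FPKM + 0.1) with limma 3.58.1 (trended empirical Bayes, R 4.3.3) and Benjamini-Hochberg adjustment at 0.05 over all of them, and each receptor also by exact permutation (two-sided) of the 9 and 9 livers, with 48620 splits and a smallest possible p of 4.11e-05. A genotype by series term was tested in limma and by permuting the series within each genotype (15876 regroupings). That permutation takes as its null no difference between the series in either genotype, and its p is not adjusted over genes. The fits were tested on simulated data. P-values weigh a difference against the spread between these livers. The main fit has no term for the title series, so a difference between the series is part of that spread.

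The receptors, gene lists and tests were chosen with earlier results of these data known. Named in the text were all 9 receptors, Gpr180, from each list of other receptors, coregulators and targets every gene that passed (up to 4) or else the 2 of lowest p, and the 2 genes most like each receptor. Plin4, Cidea, Cidec, Mogat1, Pdk4, Cyp2c29, Cyp2b10 and the cell type markers named were chosen after their values were seen. Alternatives were other pseudocounts, minimum levels and scalings, the title series as a block or alone, library weights, TPM, and leaving out each library. Leaving out KOhfd51 together with median-of-ratios scaling or in the series test was added after seeing the data. Libraries from normal diet were not analysed here.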

Additional observations from a re-analysis of the deposited data

Results flagged for a closer look

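A genotype difference that changed between the title series stood out for 2 receptors. For Rxra the series 2 difference minus the series 1 difference was -0.589 on the log2 scale, and for Nr1i2 it was -0.292. Neither passed adjustment over all genes.

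In 5 of 18 groups of 9 libraries, 1 library stood apart by its gap to the nearest other library as a share of the group's range, against a critical value of 0.493. Chance gives about 1 in 20 such groups when they are independent, but these groups share libraries, and KOhfd51 recurs among them. The gap was 0.766 for Pparg in Gpr180KO (KOhfd53 lowest). For KOhfd51, the lowest knockout library, it was 0.878 for Rora, 0.815 for Thrb and 0.625 for Nr3c1. It was 0.553 for Thrb in WT, where WThfd134 was highest.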

How the results depend on the processing

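Of 305 receptor values under 34 settings, 2 passed adjustment, Rxra in series 1 alone and Nr1i2 with median-of-ratios scaling and the series as a block, so that 1 receptor was called under each of those settings and 0 under every other setting run. Pparg and Ppard stayed lower in Gpr180KO under every setting run. Small differences changed sign. With median-of-ratios scaling, with or without the series block, Rxra was 0.14, Nr1i3 0.023, Nr3c1 0.053 and Esrra 0.078, and with that scaling and without KOhfd51 Rxra was 0.18, Nr1i3 0.011, Thrb 0.087, Rora 0.22 and Nr3c1 0.16. With scaling to the 75th percentile Rxra was 0.11, Nr3c1 0.022 and Esrra 0.047. With library weights Rxra was 0.16, Nr1i3 0.017 and Rora 0.13. In series 1 alone Rxra was 0.31, Nr1i3 0.033, Rora 0.23 and Esrra 0.015, and in series 2 alone Nr1i2 was -0.042. Leaving out 1 library gave Rxra -0.054 to 0.055, Rora -0.49 to 0.097 and Nr3c1 -0.14 to 0.031, the highest values of Rora and Nr3c1 being those without KOhfd51.

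The number of genes called among all genes depended on the setting more than the receptors did. From 513 it went to 293 with median-of-ratios and 282 with 75th percentile scaling, 837 with a minimum of 0.1 FPKM and 238 with 5 FPKM, 1153 with the series block, 1331 with library weights, and 0 in series 2 alone in limma (2019 at an unadjusted p under 0.05). Leaving out 1 library gave 132 (without WThfd133) to 922 genes (without WThfd157), with 778 without KOhfd51, and moved the count by over 1.5 times also for W317HFD, W318HFD, W320HFD, WThfd156, KOhfd52, KOhfd53 and KOhfd54. With the series block 10.6% of all genes were called. The target genes called lower and higher then went to 2 and 0 for PPAR gamma (9 tested) and PPAR delta (8 tested). They went to 1 and 0 for Thrb (7 tested) and Esrra (10 tested), and to 1 and 1 for Nr3c1 (12 tested). The cause was not tested. The tables give no counts, so precision at the low levels of Ppard could not be read from depth. Its deposited intervals, used in no test, had half-widths of 15.4% to 21.7% of FPKM, and 0 of 18 values lay outside them.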
